A study of Mus musculus with 6 samples.

Results

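The genes described here are 6 mouse genes of hepatic glucose phosphorylation, glycolysis and glycogen metabolism: Gckr, Pklr, Gys2, Pygl, Ppp1r3b and Ppp1r3c. They were chosen by name, with earlier results of these data known. All 6 were found among the 21887 protein-coding genes of the RefSeq table used, and 30 of the 120905 accessible intervals of the series overlapped their gene spans or the 10 kb to either side. The series mapped open chromatin with ATAC-seq, whose transposase cuts and tags accessible DNA, in wild-type male mouse liver under a high-fat diet. It has 6 libraries, 3 of the inbred strain C57BL/6J and 3 of the inbred strain 129S1/SvImJ. The labels name the transposed material by an unexplained abbreviation ("LMs"), carry an Esrrg antibody entry that has no place in the protocol, and do not say whether replicates were separate animals. The data analysed are a single combined list of interval positions in mm10, without score, read count, library or strain, so the depth is unknown and the strains were not compared. An interval may come from any cell type in the preparation.

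The liver takes up glucose after a meal, traps it by phosphorylation, and either breaks it down by glycolysis or stores it as glycogen, which it releases again in fasting. Gckr encodes the glucokinase regulatory protein, which binds and inhibits the hepatic glucose-phosphorylating enzyme in the nucleus. Pklr encodes the pyruvate kinase of liver and red cells, the last enzyme of glycolysis. Gys2 encodes liver glycogen synthase and Pygl liver glycogen phosphorylase, which build and degrade the polymer. Ppp1r3b and Ppp1r3c encode glycogen-targeting subunits of protein phosphatase 1, which bring the phosphatase to glycogen, where it activates the synthase and switches off the phosphorylase.

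Each of the 6 genes had an interval within 1 kb of an end of its span, where 61.5% of all protein-coding genes did. Among genes of similar length, defined below, that share ran from 56.1% for Ppp1r3c to 72.4% for Gys2. It was above 61.5% for each member except Ppp1r3c. All 6 had at least 1 interval in the span and 10 kb flanks, as did 83.9% of all protein-coding genes. Gys2 and Pygl had 7 intervals each, Ppp1r3b had 6, Gckr and Pklr had 4 each, and Ppp1r3c had 2. The median was 5 per gene, against 3 for protein-coding genes at large. The members were longer, with a median span of 21.2 kb against 17.2 kb, so counts are set against genes of similar length below. Of the 30 intervals, 13 were centred inside a gene span and 17 in a flank. An interval in a flank can belong to a neighbour, and 6 of the 30 were centred nearer to an end of another gene than to an end of the member.

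**Figure D1:**
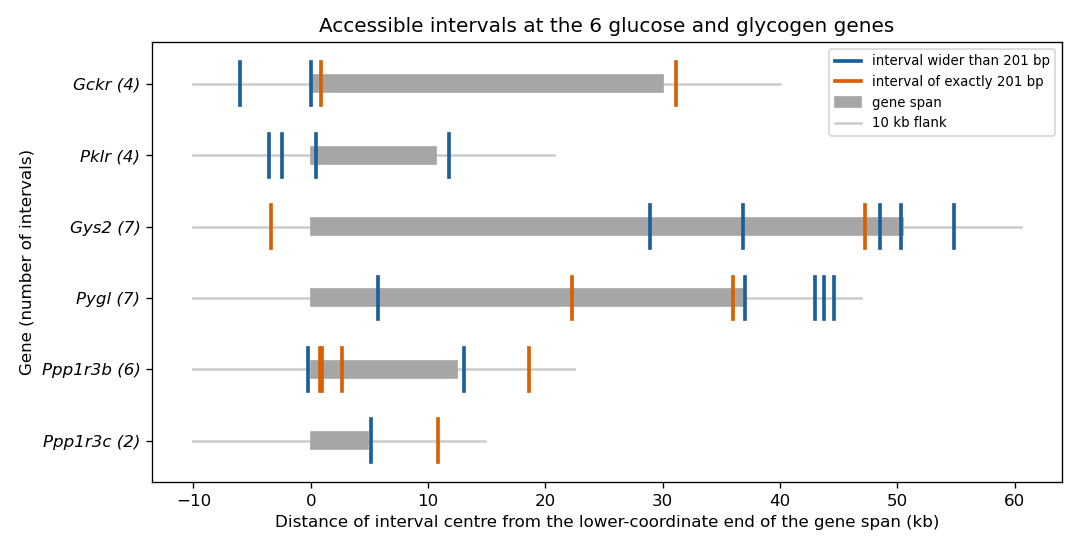
Map of the 30 intervals at the 6 genes. The horizontal axis is the distance in kb of the interval centre from the lower-coordinate end of the gene span, grey bars are gene spans, thin lines the 10 kb flanks, and each vertical tick is 1 interval, coloured by width. The 7 intervals of Gys2 lie mostly toward its upper-coordinate end, and Ppp1r3c has both of its intervals above the span.

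RefSeq start windows, which run from 250 bases before a transcription start to 50 bases from it, were matched for 4 of the 6 genes, with 2 start sites for Pklr. Gys2 and Ppp1r3b were not matched. An interval overlapped a start window of all 4 genes, against 52.1% of the protein-coding genes in that table. Of the 5 member start sites 4 were covered, against 48.4% of all listed start sites of protein-coding genes. The sequences are shown because they place the deposited interval, whose width rule is not given, relative to each listed start. They are given 5′ to 3′ along the direction of transcription, from the GRCm38.p6 assembly (mm10), and capitals mark the bases that lie inside a deposited interval.
Gckr, chr5:31297313-31297612, plus strand: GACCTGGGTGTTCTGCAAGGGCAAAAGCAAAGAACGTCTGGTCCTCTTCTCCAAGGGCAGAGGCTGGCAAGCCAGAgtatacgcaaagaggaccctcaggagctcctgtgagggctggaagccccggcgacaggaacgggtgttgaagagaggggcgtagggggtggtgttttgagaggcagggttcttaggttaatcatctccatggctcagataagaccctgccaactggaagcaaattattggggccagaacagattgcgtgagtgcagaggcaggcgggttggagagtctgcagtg
Pklr upstream start, chr3:89135892-89136191, plus strand: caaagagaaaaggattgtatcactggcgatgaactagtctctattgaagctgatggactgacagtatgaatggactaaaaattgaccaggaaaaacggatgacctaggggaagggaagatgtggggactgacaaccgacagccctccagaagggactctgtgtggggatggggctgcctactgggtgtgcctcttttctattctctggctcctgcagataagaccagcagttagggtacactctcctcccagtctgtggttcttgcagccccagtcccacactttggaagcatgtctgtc
Pklr downstream start, chr3:89136373-89136672, plus strand: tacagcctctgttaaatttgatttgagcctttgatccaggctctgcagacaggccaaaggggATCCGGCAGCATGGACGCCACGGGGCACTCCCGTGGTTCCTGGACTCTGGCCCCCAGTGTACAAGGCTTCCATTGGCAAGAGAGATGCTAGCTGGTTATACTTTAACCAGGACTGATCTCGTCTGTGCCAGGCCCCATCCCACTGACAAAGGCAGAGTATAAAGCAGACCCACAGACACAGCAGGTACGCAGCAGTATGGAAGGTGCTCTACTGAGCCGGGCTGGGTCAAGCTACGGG
Pygl, chr12:70227634-70227933, minus strand: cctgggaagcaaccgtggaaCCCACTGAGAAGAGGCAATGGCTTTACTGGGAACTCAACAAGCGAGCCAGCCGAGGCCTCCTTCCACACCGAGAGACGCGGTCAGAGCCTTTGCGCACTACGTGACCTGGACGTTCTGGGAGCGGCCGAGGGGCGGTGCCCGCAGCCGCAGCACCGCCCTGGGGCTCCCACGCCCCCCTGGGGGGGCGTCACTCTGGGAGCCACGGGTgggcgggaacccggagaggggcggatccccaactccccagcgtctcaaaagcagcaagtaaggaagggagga
Ppp1r3c, chr19:36736555-36736854, minus strand: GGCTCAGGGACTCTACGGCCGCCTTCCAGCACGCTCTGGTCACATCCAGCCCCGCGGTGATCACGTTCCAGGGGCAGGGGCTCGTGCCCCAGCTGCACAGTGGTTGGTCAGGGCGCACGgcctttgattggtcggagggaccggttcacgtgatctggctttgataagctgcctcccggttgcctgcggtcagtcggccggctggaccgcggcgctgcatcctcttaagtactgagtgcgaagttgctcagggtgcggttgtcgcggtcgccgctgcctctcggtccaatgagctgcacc
The share of each 300-base window inside an interval differed between the genes. It was 238 bases at the downstream start of Pklr, 208 at Pygl, 119 at Ppp1r3c, 76 at Gckr and 0 at the upstream start of Pklr. At Gckr and Ppp1r3c the capitals stand at the 5′ side, so the interval ended before the start site. At the downstream Pklr start the capitals run to the last base of the window, so the interval crossed the start site.

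**Figure D2:**
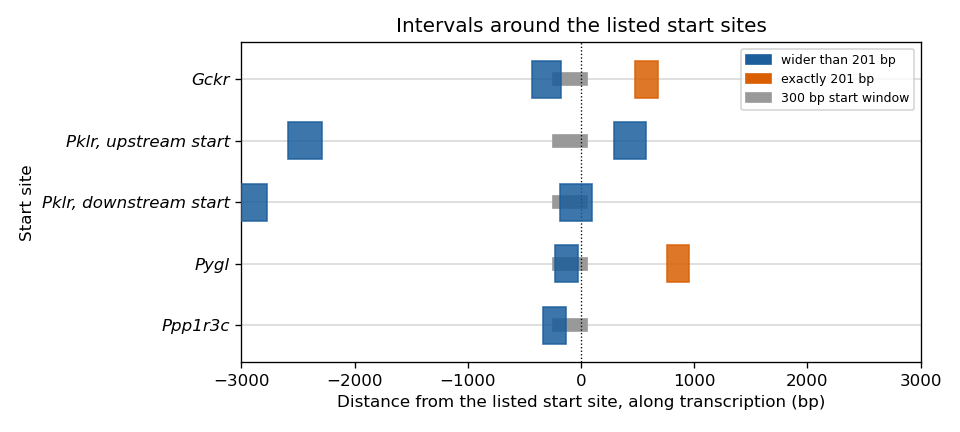
Intervals within 3 kb of the 5 listed start sites. The horizontal axis is the distance in bp from the start site along the direction of transcription, grey bars are the 300 bp start windows and coloured boxes are intervals at their true width. The downstream start of Pklr lies inside an interval, the upstream start of Pklr has none over its window, and at Gckr, Pygl and Ppp1r3c the interval ends before the start.

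Gckr (NCBI gene 231103, chr5:31297266-31327302) spans 30.0 kb and had 4 intervals. The widest, chr5:31297130-31297388 (259 bp), straddled the lower-coordinate end of the span, with its centre 7 bp outside it and 304 bp upstream of the listed start site. That start site lies 297 bp inside the span, so the span begins at an earlier annotated position. A second interval of 201 bp, chr5:31298042-31298242, was centred 579 bp downstream of the start. No interval was centred in the remaining part of the gene until chr5:31328330-31328530, which was centred 1128 bp beyond the upper end and missed the 1 kb end window by 28 bp. The fourth, chr5:31291139-31291349, lay inside the neighbouring ciliary transport gene Ift172, centred 147 bp from an end of that gene and 6022 bp from Gckr. By distance, the other 3 intervals were nearer to Gckr than to any other gene.

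Pklr (gene 18770, chr3:89136122-89146815) spans 10.7 kb and had 4 intervals, all wider than the narrowest width of the list. Background knowledge of this gene is that the red-cell form is transcribed from an upstream promoter and the liver form from a downstream one. The table lists start sites 481 bp apart. The interval chr3:89136435-89136720 (286 bp) was centred 46 bp upstream of the downstream start. No interval overlapped the window of the upstream start. Toward the 5′ flank stood chr3:89133553-89133853, at 301 bp the widest interval of the 6 genes, and chr3:89132489-89132700 (212 bp). Their centres were 2439 and 3548 bp upstream of the first start site, with 852 bp between them. Across the whole list 1.87% of intervals were at least 301 bp wide. The fourth interval, chr3:89147774-89147990, lay past the 3′ end inside the ion channel gene Hcn3, whose span shares 41 bp with that of Pklr. It reached only 42 bp into the 1 kb window at that end, and on it rests the count of Pklr among genes with an interval at both ends.

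Gys2 (gene 232493, chr6:142422612-142473130) is the longest of the 6 genes at 50.5 kb and had 7 intervals, of which 5 were centred inside the gene. Toward the upper-coordinate end, intervals were centred 223 bp (chr6:142472789-142473026, 238 bp), 1992 bp (chr6:142471032-142471245, 214 bp) and 3307 bp (chr6:142469723-142469923, 201 bp) inside the span. A further interval, chr6:142477319-142477529, was centred 4294 bp outside this end. Deeper in the gene, chr6:142459385-142459595 (211 bp) and chr6:142451420-142451684 (265 bp) were centred 13640 and 21578 bp from the upper end. The lower-coordinate part of the gene was empty: 32104 bp separated the last of these from the next interval, chr6:142419115-142419315. That one overlapped the neighbouring gene Spx, which encodes the peptide spexin, and was centred 525 bp from an end of Spx and 3397 bp from Gys2.

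Pygl (gene 110095, chr12:70190815-70227683) spans 36.9 kb and had 7 intervals. The interval chr12:70227706-70227913 (208 bp) lay wholly within the start window, centred 126 bp upstream of the start. The lncRNA F730035M05Rik starts 158 bp away in the opposite direction, and this interval was centred 32 bp from its end, so the interval cannot be assigned to one of the pair. Inside the gene, intervals of 201 bp were centred 855 bp (chr12:70226728-70226928) and 14562 bp (chr12:70213021-70213221) downstream of the start, and chr12:70196434-70196653 (220 bp) was centred 31140 bp downstream, near the 3′ end. Upstream, a cluster of intervals stood 6086, 6876 and 7705 bp from the start, with gaps of 574 and 600 bp between them (chr12:70233662-70233877, chr12:70234452-70234666 and chr12:70235267-70235510). The first of the cluster lay inside F730035M05Rik, centred 396 bp from its far end, and the second was centred 394 bp beyond that end. These upstream sites therefore make up a large part of the count for Pygl: with flanks of 5 kb in place of 10 kb the count was 4.

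Ppp1r3b (gene 244416, chr8:35375694-35388139) spans 12.4 kb and had 6 intervals, the most per length of the 6 genes, at 1.85 per 10 kb of span and flanks. The other members ranged from 0.799 for Gckr to 1.30 for Pklr. At the lower-coordinate end stood chr8:35375321-35375543 (223 bp), centred 262 bp outside the span. It was followed inside the gene by chr8:35376362-35376562 and chr8:35376568-35376768, both 201 bp wide and separated by 5 bp, and by chr8:35378292-35378492 (201 bp), centred 2698 bp from that end. The pair counts as 1 accessible stretch when intervals within 500 bp are joined, which leaves Ppp1r3b with 5. Past the upper end, chr8:35388680-35388886 (207 bp) was centred 644 bp and chr8:35394190-35394390 (201 bp) 6151 bp outside the span. Ppp1r3b and Pklr were the members with an interval at both ends, a feature of 9.68% of protein-coding genes. No other gene overlapped an interval of Ppp1r3b, and the nearest annotated neighbour, the lncRNA Gm34705, ended 7862 bp away.

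Ppp1r3c (gene 53412, chr19:36731731-36736604) is the shortest of the 6 genes at 4.87 kb and had 2 intervals, neither inside the gene. The nearer, chr19:36736736-36736941 (206 bp), was centred 234 bp upstream of the start. The other, chr19:36742490-36742690 (201 bp), was centred 5986 bp upstream. No other gene overlapped the window of Ppp1r3c, and its count equalled the median of 2 for genes of similar length. Which gene the interval centred 5986 bp upstream belongs to was not tested.

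Letters of known binding motifs were searched on both strands of the 5 start windows, as a description. Among these windows, the one at the downstream Pklr start had a match to the letters of a carbohydrate response element, searched as CACGNG, then any 5 bases, then CNCGTG. This element is the paired E-box arrangement bound by the glucose-responsive factor ChREBP and for which the liver promoter of this gene is a textbook case. The match, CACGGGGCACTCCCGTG, begins 170 bases before the downstream start and lies wholly inside the interval there. These letters were added to the search after the sequences had been seen, and they occur in 14 of 21263 start windows of protein-coding genes (0.0658%). The same Pklr window holds a TATA box, with the letters TATAAA beginning 31 bases before the start, also inside the interval (12.6% of all windows). The E-box letters CACGTG occur in the Ppp1r3c window, beginning 104 bases before the start, outside the interval (7.84% of all windows). The GC box GGGCGG occurs at 4 places in the Pygl window, of which the pair farther from the start lies inside the interval (46.2% of all windows). AGGTCA, a nuclear receptor half-site, occurs in the Pygl window inside the interval and in the window of the upstream Pklr start, which has no interval (14.7% of all windows). TTGCNNAA, a C/EBP-like motif, occurs in the Gckr window inside the interval (10.2% of all windows). CCAAT occurs in the windows of Gckr, Ppp1r3c and the downstream Pklr start (38.2% of all windows), and lies inside the interval at Pklr. The extended half-site CAAGGTCA (which contains AGGTCA), the forkhead motif TGTTTAC and the cyclic AMP response element TGACGTCA were not found in these 5 windows (1.34%, 3.01% and 2.23% of all windows). Among windows with an interval the shares were 68.5% for GGGCGG, 39.6% for CCAAT and 9.78% for CACGTG. They were 11.8% for AGGTCA, 8.07% for TTGCNNAA and 6.21% for TATAAA. By base composition the Pygl and Ppp1r3c windows were GC-rich, at 67.0% and 65.3%, and those of Gckr (56.3%), the downstream Pklr start (55.7%) and the upstream Pklr start (50.7%) less so. Start windows with an interval had a median of 62.0% GC and those without one 50.3%.

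Set against protein-coding genes of similar length, meaning that the shorter of the pair of spans was at least 0.8 times the longer, 5 of the 6 genes had more intervals than the median, and Ppp1r3c equalled it. Over all protein-coding genes, 41.9% exceeded the median of their own length class. Ppp1r3b stood highest: its 6 intervals compared with a median of 3 among 2411 genes, 92.7% of which had fewer. Pygl with 7 against a median of 4 exceeded 82.0% of 2321 genes, and Gys2 with 7 against 4 exceeded 73.3% of 1969 genes. Pklr with 4 against 3 exceeded 69.1% of 2243 genes. Gckr with 4 against 3 exceeded 51.7% of 2580 genes, while 34.0% had more. Ppp1r3c with 2 against 2 exceeded 40.3% of 1625 genes, and 38.0% had more. Gckr, Pklr, Gys2 and Ppp1r3c lay within the quartiles of their length class, and Pygl and Ppp1r3b above the upper quartile. The count of 5 became 3 when the flanks were left out, when they were 50 kb, and when intervals of the narrowest width were left out. Genes are not replicates, and these percentages carry no test.

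**Figure D3:**
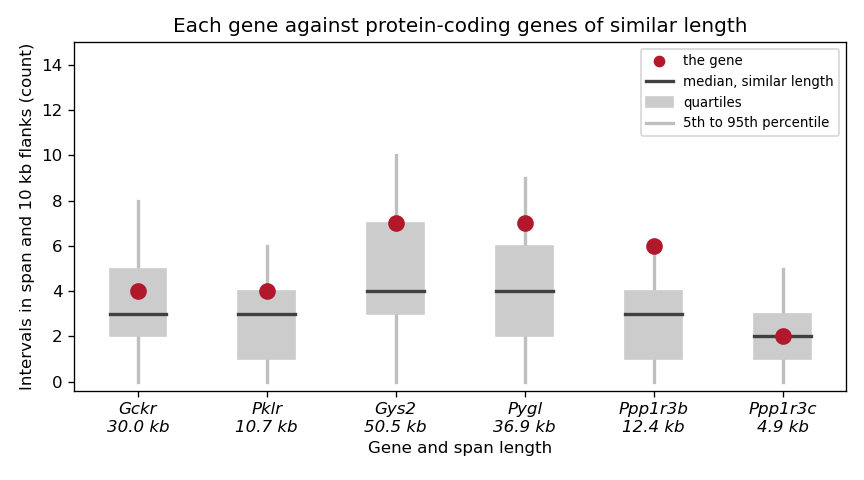
Intervals per gene against genes of similar length. The vertical axis is the number of intervals in the span and 10 kb flanks, red points are the 6 genes, and grey boxes, dark bars and lines give the quartiles, median and 5th to 95th percentile of protein-coding genes of similar length. Ppp1r3b and Pygl stand above the upper quartile and Ppp1r3c on the median.

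The order of the genes changed with interval width. Of the 30 intervals, 11 (36.7%) had the narrowest width of 201 bp, against 46.2% of the whole list, and the median width was 211 bp against 203 bp. When the 19 wider intervals were counted alone, Pklr kept all 4 and exceeded 88.0% of genes of similar length. Ppp1r3b kept 2 of 6, which equalled the median of 2 for its length, and exceeded 44.8%. Gys2 and Pygl kept 5 each, Gckr 2 and Ppp1r3c 1. At the members' ends the call did not rest on intervals of exactly 201 bp. All 6 still had a wider interval within 1 kb of an end, where 51.7% of protein-coding genes of any length did. Those of Ppp1r3c (206 bp) and Pygl (208 bp) were close to the narrowest width, and no higher cut on width was tried. How the widths were set is not given in the sources used here.

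The surroundings of the 6 genes were unlike each other. Within 50 kb of the gene, Ppp1r3b had 19 intervals, 13 of them beyond the 10 kb flanks and 10 of those on the upper-coordinate side, where genes of similar length had a median of 8 and 99.0% had fewer. No other protein-coding gene overlapped this stretch, but 5 annotated genes of other types did. Pklr had 14 intervals within 50 kb (median 8 for its length), among 7 other protein-coding genes. Gckr had no further interval between 10 and 50 kb, and with 4 in all it was below the median of 9, with 80.8% of genes of similar length having more. The first intervals outside its window lay 55.8 kb below and 125.1 kb above the gene. Ppp1r3c gained 2 and reached 4 (median 7), Pygl gained 2 and reached 9 (median 9), and Gys2 gained 4 and reached 11 (median 9). The intervals closest to the 10 kb limit on the outside stood 12.5 kb above Ppp1r3b, 13.0 kb above Ppp1r3c and 13.4 kb above Pklr. On the inside the farthest was that of Pygl, 7.71 kb from the gene.

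The other 48 genes of the pathway give the context in which these members stand. An interval lay within 1 kb of an end in 39 of them (81.3%, against 61.5% of protein-coding genes), their median was 5 intervals, and 28 (58.3%, against 41.9%) exceeded the median for their length. The comparison of 81.3% with 61.5% does not take gene length into account. All 6 genes of glycogen synthesis had an interval at an end, as had 8 of 9 genes of glycogen breakdown, 7 of 8 encoding glycogen-targeting and glycogen-associated proteins, 15 of 20 of glycolysis and 3 of 5 of glucose entry and phosphorylation. The largest counts were 33 for Gbe1, the glycogen branching enzyme gene of 256 kb (median 12 for its length), and 19 for Pfkfb3, which makes and degrades the glycolytic activator fructose 2,6-bisphosphate (82.6 kb, median 6). Pgam2, the muscle form of phosphoglycerate mutase, was the gene of these lists without an interval in its window.

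Close relatives of the 6 genes did not line up as liver form high and other form low in every pair. Gys1, the synthase of muscle and other tissues, had 6 intervals and one at each end, and at 1.44 per 10 kb was above Gys2 at 0.993. Pkm, the pyruvate kinase of most other tissues, had 5 intervals, all of them wider than 201 bp, and an interval at each end, at 1.17 per 10 kb against 1.30 for Pklr. Among the phosphorylases the order followed the liver form: Pygl had 1.23 per 10 kb, the brain form Pygb 0.770 with an interval at an end, and the muscle form Pygm 0.587 with none at an end or over its listed start. Of the glycogen-targeting subunits, the muscle gene Ppp1r3a had 4 intervals in 41.5 kb and flanks with none at an end. Ppp1r3g had 5 in 11.6 kb and flanks, all centred inside the gene. Ppp1r3e had 2, and Ppp1r3d and Ppp1r3f 1 each, with an interval at an end in all 3 of them. Per 10 kb, Ppp1r3b at 1.85 was the highest of these 7 genes, followed by Ppp1r3g at 1.58, and Ppp1r3c at 0.804 lay between Ppp1r3e at 0.911 and Ppp1r3a at 0.651. Density over a span with fixed flanks varies with gene length. By the share of similar-length genes with fewer intervals, Pkm (72.8%) was above Pklr (69.1%) and Ppp1r3a (41.8%) above Ppp1r3c (40.3%), so these orders turned, while Gys1 (85.3%) stayed above Gys2 (73.3%) and Pygl (82.0%) above Pygb (53.6%) and Pygm (26.5%). Counting wider intervals alone, Gys1 (62.5%) was below Gys2 (76.0%). By that count Ppp1r3b (44.8%) no longer led the targeting subunits: it was below Ppp1r3e (74.2%), Ppp1r3g (70.5%) and Ppp1r3a (48.9%). It was above Ppp1r3d (34.3%), Ppp1r3c (32.4%) and Ppp1r3f (17.4%). With 1 combined list, none of these orders has an error.

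**Figure D4:**
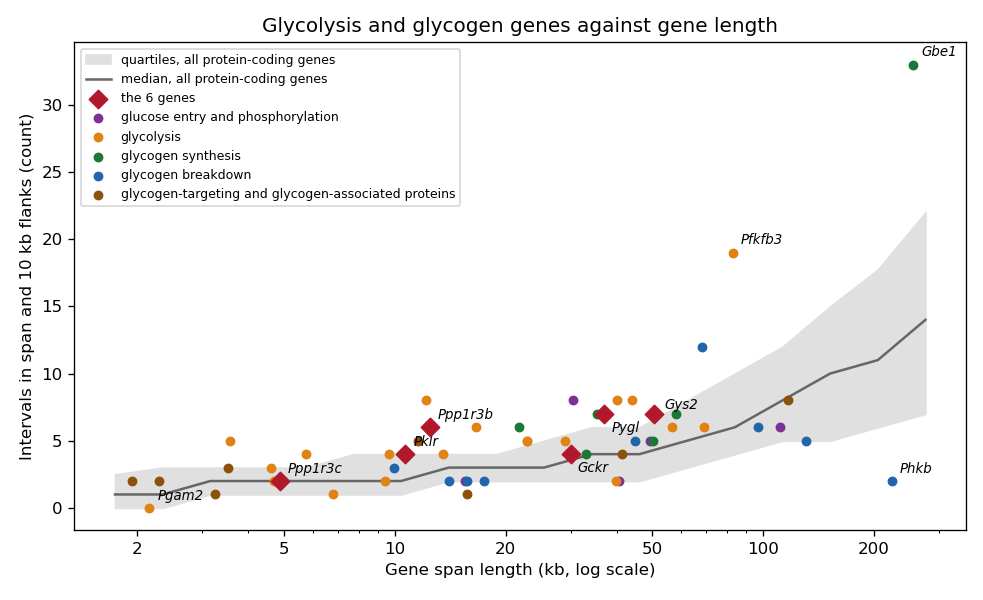
Intervals against gene length for the pathway. The horizontal axis is the span length in kb on a log scale, the vertical axis the number of intervals in the span and 10 kb flanks, diamonds are the 6 genes, circles the other 48 pathway genes by role, and the grey band and line are the quartiles and median of all protein-coding genes. Gbe1 (33) and Pfkfb3 (19) stand far above the band and Phkb (2) below it.

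As a check of the tissue label, 7 of 8 hepatocyte marker genes had an interval at an end, against 3 of 8 macrophage and Kupffer cell, 2 of 5 skeletal muscle and 2 of 5 lymphocyte marker genes (61.5% of protein-coding genes). By listed start windows the order was not the same: an interval overlapped one in 1 of 6 hepatocyte (16.7%) and 2 of 5 macrophage and Kupffer cell genes (40%) with a listed start, and in none of 4 skeletal muscle and 4 lymphocyte genes, against 52.1% of protein-coding genes. Of the macrophage list, Adgre1, C1qa, Clec4f, Csf1r and Vsig4 had no interval at an end, and Cd68, Marco and Timd4 had one. These counts do not settle the cell type behind an interval. The part of cells other than hepatocytes in the intervals of the 6 genes was not tested.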

How the data were processed

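Positions were taken from 1 list of intervals that the authors deposited for all 6 libraries combined, with chromosome, start and end in 3 columns. fastp, Bowtie2, HOMER and the build mm10 are named in the submitters' processing notes. Not given in the sources used here are versions, any correction of read positions for transposase binding, duplicate filters, the peak threshold and the rule for combining libraries. The number of weak sites in the list depends on that threshold. Starts were converted to 1-based positions. Intervals overlapping a gene span and 10 kb flanks by at least 1 bp were counted, using gene spans and start windows from RefSeq (GRCm38.p6, which is mm10). Strand and exons were not in the gene table, so ends are named by coordinate where no start window was matched, and exons, introns and UTRs were not separated. Distances run from the interval centre. Genes were of similar length when the shorter span was at least 0.8 times the longer.

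No test was run, because a combined list has no replicates. The members and lists were chosen with earlier results of these data known. All members were named, together with their close relatives, the 3 other pathway genes with the most intervals, and those with none. A gene that this rule would name is left out of the text. Counters were tested on simulated data. Python 3.11.15, pandas 2.3.3 and NumPy 2.4.6 were used.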

Additional observations from a re-analysis of the deposited data

How the results depend on the processing

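The 30 intervals of the 6 genes became 14 without flanks, 61 with flanks of 50 kb and 19 without the narrowest intervals. They remained between 24 and 30 with flanks of 5 kb, with interval centres, with joined intervals and, in an alternative chosen after seeing the data, without intervals centred within 1 kb of another gene's end (26). The 5 genes above the median for their length became 3 without flanks, 3 with flanks of 50 kb and 3 without the narrowest intervals, and were 4 or 5 under the other alternatives tried. Ppp1r3c had no interval without flanks. The percentage of similar-length genes with fewer intervals ranged over the alternatives from 44.8 to 99.0 for Ppp1r3b, 45.8 to 84.7 for Pygl, 57.8 to 83.1 for Gys2, 31.7 to 89.3 for Pklr, 13.5 to 58.3 for Gckr and 0 to 51.9 for Ppp1r3c. All 6 genes kept an interval at an end with windows of 500 bp (56.0% of protein-coding genes), 5 kb (76.8%), with centres (60.6%) and without the narrowest intervals (51.7%). No paired analysis was possible because the combined list carries no value by library or strain, and for the same reason no replicate could be left out. Depth is unknown, and the list carries no score or read count, so weak sites cannot be told from strong ones.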

Other observations

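Among the other pathway genes, a few stood far from the median for their length, and those named here were chosen after their values were seen. Eno1, the widely expressed enolase of glycolysis, had 8 intervals in 12.2 kb and flanks, and 99.0% of genes of similar length had fewer. Tpi1, triose phosphate isomerase, had 5 in 3.57 kb and flanks (93.4% had fewer), none of them centred inside the gene. Slc2a2, the hepatic glucose transporter GLUT2, had 8 in 30.5 kb and flanks (92.5% had fewer), 5 of them centred inside the gene. Which gene the intervals in the flanks of Eno1, Tpi1 and Slc2a2 belong to was not tested. On the low side, Phkb, a regulatory subunit of phosphorylase kinase, had 2 intervals in 223 kb and flanks, where 90.6% of genes of similar length had more. Hk1, a hexokinase of most tissues, and its relative Hkdc1 had 6 and 2 intervals, within the quartiles for their lengths, with none at an end or over a listed start.

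The carbohydrate response element letters found at Pklr occurred in 14 start windows of protein-coding genes, of which 7 overlapped an interval. Of all listed start windows of protein-coding genes, 48.4% did, so the count lies near that share. Overlapping windows of the same gene, Fkbp6, are counted separately among the 14. No other gene of the lists used here had such a window.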
